A study of Mus musculus with 6 samples.

Results

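The genes described here mark the step at which blood stem cells give rise to multipotent and lymphoid-primed progenitors, and 9 of them (Flt3, Il7r, Notch1, Ccr9, Cd27, Cd48, Dntt, Satb1 and Ikzf1) were taken by name from a table of 51826 genes. RNA was sequenced from mouse bone marrow cells of the CD34-KSL fraction, that is CD34-negative cells that carry Kit and Sca-1 and lack lineage markers, a fraction rich in long-term stem cells. There were 4 libraries from mice labelled Elovl6 knock out (KO), Elovl6 being the gene of the enzyme that lengthens palmitate to stearate, and 2 libraries from wild-type (WT) mice. The labels used here give no age, sex or strain, and do not say which part of Elovl6 was removed. Nor do they say whether libraries came from separate or pooled animals. The p-values below therefore set the difference between KO and WT against a spread of libraries within groups that may be technical. The comparison asks how loss of Elovl6 alters gene expression in stem cells.

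Lymphoid priming is a gradual change. Most long-term stem cells carry little FLT3, and as cells move to multipotent and lymphoid-primed progenitors they gain this receptor, silence stem cell genes and begin to transcribe lymphoid genes such as Dntt before they commit to the B or T lineage. Ikaros (Ikzf1), SATB1 and E proteins act in the nucleus to open this program, while FLT3, the IL-7 receptor and NOTCH1 carry the signals that maintain it or direct it to B or T cells.

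Promoter sequences are shown for Flt3 and Dntt, because they are the receptor and the enzyme most often used to score lymphoid priming. Both were highest in KO replicate 1, which was the highest library for 7 of the 8 tested members. RefSeq (GRCm38.p6, the assembly also called mm10) has promoters for all 9 members, each from 250 bases before to 50 after a transcript start. The Flt3 promoter lies on the minus strand at chr5:147400440-147400739 and the Dntt promoter on the plus strand at chr19:41029025-41029324. Capitals mark each match to CANNTG, the E-box letters that E proteins bind, which read the same on both strands.
Flt3: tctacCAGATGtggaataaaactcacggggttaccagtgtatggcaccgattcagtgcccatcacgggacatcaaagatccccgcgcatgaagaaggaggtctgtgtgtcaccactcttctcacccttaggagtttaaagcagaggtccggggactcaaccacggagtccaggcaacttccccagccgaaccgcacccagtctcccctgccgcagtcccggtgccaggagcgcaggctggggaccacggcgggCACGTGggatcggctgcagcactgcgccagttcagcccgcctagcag
Dntt: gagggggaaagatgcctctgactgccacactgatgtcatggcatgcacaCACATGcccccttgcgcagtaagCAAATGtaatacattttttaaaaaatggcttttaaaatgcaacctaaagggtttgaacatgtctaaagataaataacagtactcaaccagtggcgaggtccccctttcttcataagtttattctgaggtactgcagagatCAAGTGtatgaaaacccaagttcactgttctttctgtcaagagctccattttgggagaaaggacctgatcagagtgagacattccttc
E-box letters occur 2 times in the Flt3 window and 3 times in the Dntt window, and 72.3% of the 32851 mouse promoters of this length hold at least 1. The letters GGGAA (or TTCCC), the core that Ikaros binds, occur 1 time in each window, and 62.7% of promoters hold them. The shorter ETS core GGAA (or TTCC), which lies within GGGAA, is in 96.0% of promoters. Such matches are letters in a window and show no binding.

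The libraries were shallow and uneven. Counts assigned to genes totalled between 2121240 and 5137628 in KO and between 3569449 and 3812524 in WT. Elovl6 was at 21.4, 12.7, 19.5 and 8.81 CPM (the count scaled to library size, by the TMM factors of edgeR) in KO replicates 1 to 4, against 30.6 and 38.3 CPM in the WT libraries. This difference, -1.12 on the log2 scale (SE 0.32), missed the threshold (adjusted p = 0.346, edgeR quasi-likelihood test), so Elovl6 RNA was lower but present in each library labelled KO. KO replicate 1 stood apart by B-lineage RNA: the summed level of 14 B cell genes was 1020 CPM there, 176 to 385 CPM in the other KO libraries, and 143 and 213 CPM in WT. KO replicate 4 stood apart by granulocyte and monocyte RNA, with 7951 CPM summed over 11 genes, 321 to 1563 CPM in the other KO libraries, and 629 to 1200 CPM in WT. The ribosomal RNA-like gene CT010467.1 took 12.3%, 13.3%, 24.0% and 31.0% of the gene reads of KO replicates 1 to 4, against 13.9% and 16.1% of those of the WT libraries. Of the gate's markers, Kit was at 966 to 1444 CPM in KO and 1224 to 1303 CPM in WT. Ly6a, which encodes Sca-1, was at 33.3 to 51.3 CPM in KO and 64.7 to 75.0 CPM in WT. Cd34 RNA was present in every library, at 305 to 417 CPM in KO and 310 to 342 CPM in WT, in cells sorted as negative for the protein.

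Of the 9 members, 8 had enough counts to be tested and 7 of these had a log2 fold change above 0 (higher in KO), as did 51% of all tested genes, the exception being Cd27. No member passed the genome-wide threshold (adjusted p under 0.05 over 11969 genes, edgeR quasi-likelihood test), where the share of all tested genes called was 0.159%. At an unadjusted p under 0.05, 3 of the 8 members were higher in KO (Notch1, Flt3 and Satb1) and none lower, against 5.67% of all tested genes called higher. Members and the gene lists below were chosen with earlier results of these data known. The shares of all genes, here and below, therefore give a scale and no independent test of these sets. With DESeq2, 0 members passed after adjustment (0.728% of all genes did) and 3 were higher without it (5.54% of all genes). With limma-voom, 0 passed (0.0752% of all genes) and 2 were higher without adjustment (4.65%). Without the filter on low counts edgeR called 4 members (Dntt, Flt3, Notch1 and Satb1), where 1.69% of all genes were called. For Dntt the log2 fold change hardly differed, 1.35 in place of 1.34, while the SE was 0.23 in place of 0.65. The median log2 fold change of the tested members was 0.66, and that of all tested genes 0.01. In 4 members (Dntt, Satb1, Notch1 and Ikzf1) every KO library lay above both WT libraries, a pattern seen in 10% of all tested genes. KO replicate 1 was the highest of the 6 libraries for 7 of the 8 members, all but Cd27. It was highest for 18.1% of all tested genes. In bulk RNA, a larger share of progenitor cells and more RNA per cell cannot be told apart.

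**Figure D1:**
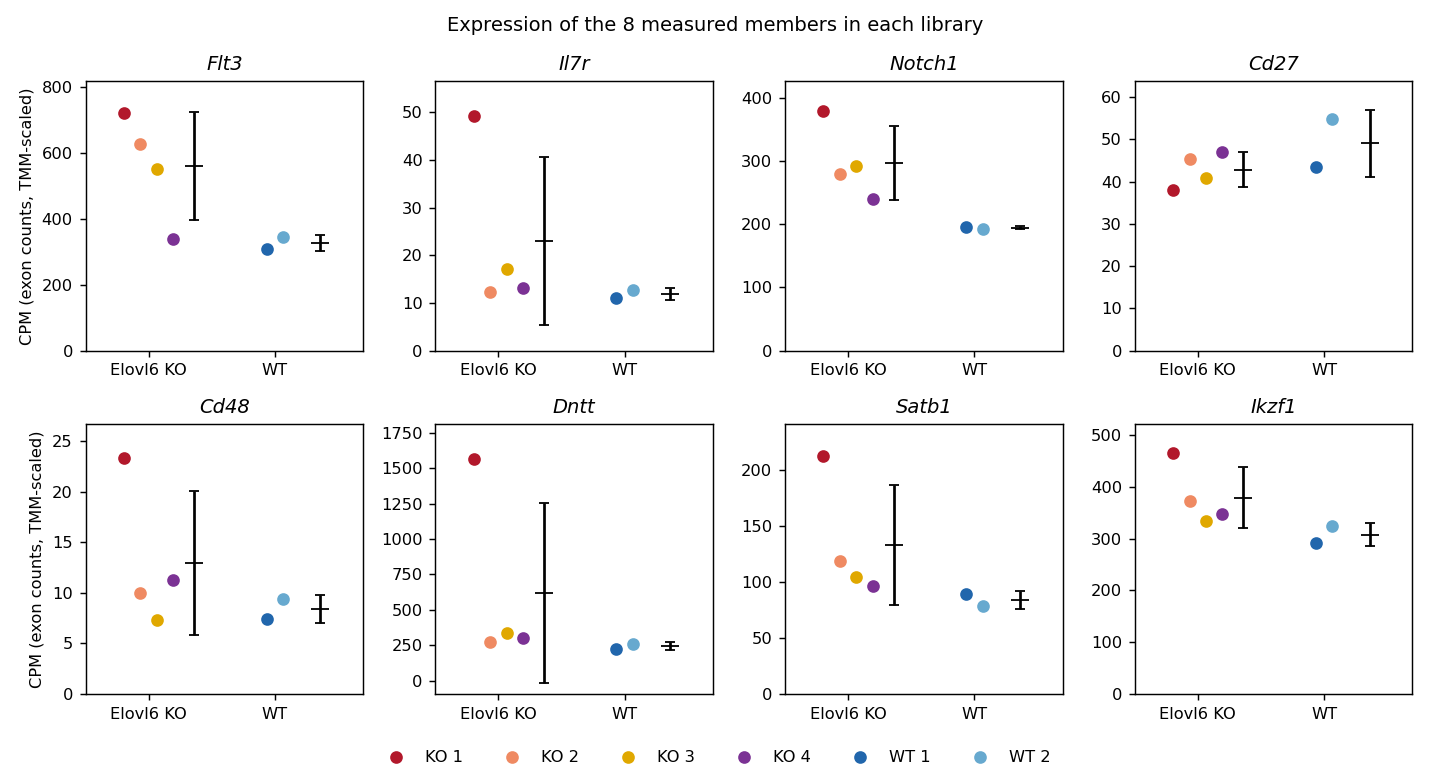
CPM of the 8 measured members in each library (coloured points), with KO to the left and WT to the right, and the mean and SD of each group as a black bar (n = 4 and n = 2). KO replicate 1 is the highest point in every panel except Cd27.

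Flt3 encodes the receptor tyrosine kinase for FLT3 ligand, which sustains multipotent and lymphoid progenitors and dendritic cells (ENSMUSG00000042817, chromosome 5, 147330741 to 147400489, mm10). It had 721, 626, 552 and 338 CPM in KO replicates 1 to 4, against 309 and 344 CPM in WT. KO replicates 1 to 3 lay clearly above both WT libraries, while KO replicate 4 lay between them. The means were 559 ± 163 CPM in KO (SD, n = 4) and 326 ± 25.3 CPM in WT (SD, n = 2). The log2 fold change was 0.78 (SE 0.25, adjusted p = 0.390, edgeR quasi-likelihood test). Without KO replicate 1 it was 0.62 (SE 0.22, adjusted p = 0.463). Without KO replicate 4 it was 0.95 (SE 0.15) and passed the threshold (adjusted p = 0.0343), as did 0.254% of all genes in that fit, and over all alternatives the adjusted p ran from 0.00119 to 0.696. KO replicate 4 also held the most granulocyte RNA and the most ribosomal RNA-like reads, whose part in its Flt3 level was not tested.

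Intron reads give a second readout of Flt3, since they come mainly from RNA not yet spliced. Scaled to intron libraries, they were at 104, 119.7, 79.7 and 85.3 CPM in KO replicates 1 to 4 and at 56.8 and 51.3 CPM in WT. With this scaling all 4 KO libraries, replicate 4 included, lay above both WT libraries. The intron TMM factor of KO replicate 4 was 0.680, against 1.11 and 0.943 in WT. Unscaled, KO replicate 4 (200 of 3450562 reads) lay between WT replicate 1 (225 of 3582078) and 2 (211 of 4361536). The annotation also places the antisense gene Gm26597 over Flt3, sharing 0 exon bases. The intron log2 fold change was 0.85 (SE 0.23, adjusted p = 0.449, edgeR quasi-likelihood test), near the 0.78 of the exon counts, and it too missed the threshold. Flt3 was the 1 member of 7 with testable intron reads whose groups did not overlap in this measure, against 8.11% of genes. It was also the 1 member with an unadjusted p under 0.05 in intron reads (higher in KO), against 3.83% of genes.

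Il7r encodes the alpha chain of the IL-7 receptor, which common lymphoid progenitors and B and T precursors need and stem cells largely lack (ENSMUSG00000003882, chromosome 15, 9506161 to 9529876). It was scarce, with 244, 59, 49 and 27 counts in KO replicates 1 to 4, against 40 and 49 counts in WT. As CPM these were 49.2, 12.3, 17.1 and 13.2 in KO, against 11.01 and 12.8 in WT. KO replicate 1 stood alone, 3.46-fold above the mean of KO replicates 2 to 4, and KO replicate 2 lay between the WT libraries. The log2 fold change was 0.98 (SE 0.55, adjusted p = 0.599, edgeR) with all libraries and 0.24 (SE 0.36, adjusted p = 0.873) without KO replicate 1. Its intron reads were at 11.07, 2.30, 3.49 and 2.56 CPM in KO replicates 1 to 4, against 3.78 and 5.83 CPM in WT. In this measure KO replicates 2 to 4 lay below both WT libraries, and the log2 fold change was 0.03 (SE 0.66, adjusted p = 0.999).

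Notch1 encodes the receptor that commits lymphoid progenitors to the T lineage in the thymus (ENSMUSG00000026923, chromosome 2, 26457903 to 26516663). It had 378, 279, 292 and 240.3 CPM in KO replicates 1 to 4, against 196 and 193 CPM in WT. The 2 WT libraries were almost equal and all KO libraries lay above them, with means of 297 ± 58.2 CPM in KO (SD, n = 4) and 194 ± 2.67 CPM in WT (SD, n = 2). The log2 fold change of 0.61 (SE 0.18, adjusted p = 0.343, edgeR) became 0.47 (SE 0.14, adjusted p = 0.387) without KO replicate 1. Its intron reads did not share the difference: they were at 22.6 to 32.8 CPM in KO and at 23.7 and 30.9 CPM in WT, with a log2 fold change of 0.05 (SE 0.25, adjusted p = 0.991). On the opposite strand, the annotation places 0610009E02Rik and Gm13568 over 1068 and 414 bases of Notch1 exons, and the use of strand in counting is not given in the sources used here.

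Cd48 encodes a SLAM-family surface protein that is absent from the most primitive stem cells and present on most other blood progenitors (ENSMUSG00000015355, chromosome 1, 171682009 to 171705258). Its counts were the lowest of the tested members, 116, 48, 21 and 23 in KO replicates 1 to 4, against 27 and 36 in WT. As CPM these were 23.4, 10.02, 7.33 and 11.3 in KO, against 7.43 and 9.38 in WT. Apart from KO replicate 1 the groups overlapped, and the log2 fold change was 0.65 (SE 0.48, adjusted p = 0.696, edgeR), or 0.17 (SE 0.44, adjusted p = 0.932) without that library.

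Cd27 encodes a TNF-receptor family member found on multipotent progenitors and lymphocytes (ENSMUSG00000030336, chromosome 6, 125232622 to 125237010), and it went the other way. It had 37.9, 45.3, 40.8 and 47.0 CPM in KO replicates 1 to 4, against 43.5 and 54.7 CPM in WT. The groups overlapped, and KO replicate 1, highest for the other members, was the lowest library here. KO was lower by a log2 fold change of -0.20 (SE 0.18, adjusted p = 0.745, edgeR). Of the reads over its exons, 22.6% had a unique placement, so its level depends on how shared reads were counted, and with all exon reads the log2 fold change was -0.09.

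Ccr9 encodes the chemokine receptor that guides lymphoid progenitors to the thymus and lymphocytes to the gut (ENSMUSG00000029530, chromosome 9, 123678439 to 123784330). It had 2 counts in the 4 KO libraries and 0 in the 2 WT libraries. A count of 0 allows up to 3 counts, which is 0.402 CPM over the WT group, so Ccr9 was not detectable in these counts and they give no fold. This limit covers counting error only. Among all reads over its exons, 1.19% had a unique placement, so its level depends on how shared reads were counted. With all exon reads Ccr9 was tested, at a log2 fold change of 0.92 (SE 0.52, adjusted p = 0.616, edgeR). AC165425.1 on the opposite strand shares 1932 of its exon bases, and Gm17200 on the same strand 269.

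Dntt encodes terminal deoxynucleotidyl transferase, which adds untemplated bases at the junctions of rearranged antigen receptor genes and is among the first lymphoid genes transcribed (ENSMUSG00000025014, chromosome 19, 41029275 to 41059523). Its levels were 1567, 273, 335 and 299.99 CPM in KO replicates 1 to 4, against 228 and 263 CPM in WT. All KO libraries lay above both WT libraries, but KO replicates 2 to 4 only narrowly, whereas KO replicate 1 was 5.18-fold above their mean and 6.39-fold above the WT mean. The group means of 619 ± 633 CPM in KO (SD, n = 4) and 245 ± 24.9 CPM in WT (SD, n = 2) therefore rest on 1 library. Dntt had a log2 fold change of 1.34 (SE 0.65, adjusted p = 0.544, edgeR), the largest among the members, and 0.29 (SE 0.15, adjusted p = 0.583) without KO replicate 1. Reads across exon junctions made up 42.9% of Dntt exon reads in KO replicate 1, 42.3% to 44.3% in the other KO libraries, and 41.8% and 44.7% in WT. Intron reads were also highest there, at 43.8 CPM, compared with 11.5 to 14.5 CPM in the other KO libraries and 12.9 and 8.51 CPM in WT. The surplus in KO replicate 1 was thus present in exon and intron reads, but was smaller in intron reads. Intron reads per 100 exon counts were lowest in KO replicate 1, at 2.65, and next lowest in WT replicate 2, at 3.47. Junction reads are part of the exon reads and give no separate measure of the surplus.

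Satb1 encodes a chromatin organiser that promotes lymphoid over myeloid output (ENSMUSG00000023927, chromosome 17, 51736187 to 51833290). It had 212, 119, 104 and 95.9 CPM in KO replicates 1 to 4, against 89.2 and 78.1 CPM in WT. Every KO library was above both WT libraries, KO replicate 4 by a small margin. For Satb1 the log2 fold change was 0.67 (SE 0.29, adjusted p = 0.494, edgeR) and 0.34 (SE 0.17, adjusted p = 0.587) without KO replicate 1. In intron reads it was 0.62 (SE 0.36, adjusted p = 0.820), with KO at 31.1 to 92.6 CPM and WT at 28.8 and 39.1 CPM.

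Ikzf1 encodes Ikaros, the zinc-finger factor that lymphoid development requires from the multipotent progenitor on (ENSMUSG00000018654, chromosome 11, 11685003 to 11772926). It had 465, 372, 333 and 347 CPM in KO replicates 1 to 4, against 292 and 324 CPM in WT. The groups did not overlap, but the lowest KO library was close to the highest WT one. The log2 fold change of 0.30 (SE 0.16, adjusted p = 0.572, edgeR) was the smallest of the 7 above 0, and it was 0.18 (SE 0.13, adjusted p = 0.717) without KO replicate 1.

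**Figure D2:**
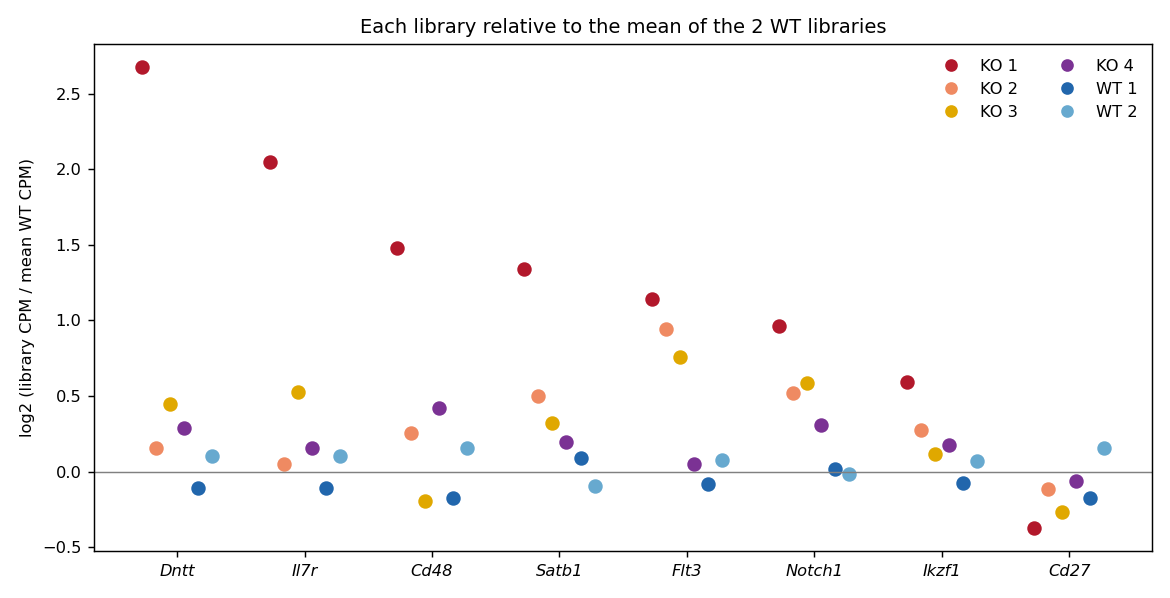
Log2 ratio of each library's CPM to the mean of the 2 WT libraries, by gene, ordered by KO replicate 1. KO replicate 1 ranges from 2.68 for Dntt to -0.37 for Cd27, and KO replicate 2 is near it for Flt3 (0.94 against 1.14) but not for Dntt (0.16).

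The members fell into different patterns across the KO libraries. Dntt and Il7r were high in KO replicate 1 alone, with log2 ratios to the WT mean of 2.68 and 2.05 there and at most 0.45 and 0.52 in the other KO libraries. Cd48 and Satb1 had a similar pattern, at 1.48 and 1.34 there and at most 0.42 and 0.50 in the others. Ikzf1 was at 0.59 there and at most 0.27 in the others. Flt3 was high in KO replicates 1, 2 and 3, at 1.14, 0.94 and 0.76. Notch1 stood at 0.96, 0.52, 0.59 and 0.31 in KO replicates 1 to 4, above 0 in each. Without KO replicate 1, 0 of the 8 members passed after adjustment against 0.144% of genes, 2 (Notch1 and Flt3) were higher at an unadjusted p under 0.05 against 4.88% of genes, and the median log2 fold change of the members was 0.27. KO replicates 2 to 4 by themselves lay above both WT libraries for the same 4 members as before, against 13.3% of all tested genes. Those 4 follow from the pattern with all KO libraries and are no separate result. Leaving out KO replicate 1 added no member to them.

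**Figure D3:**
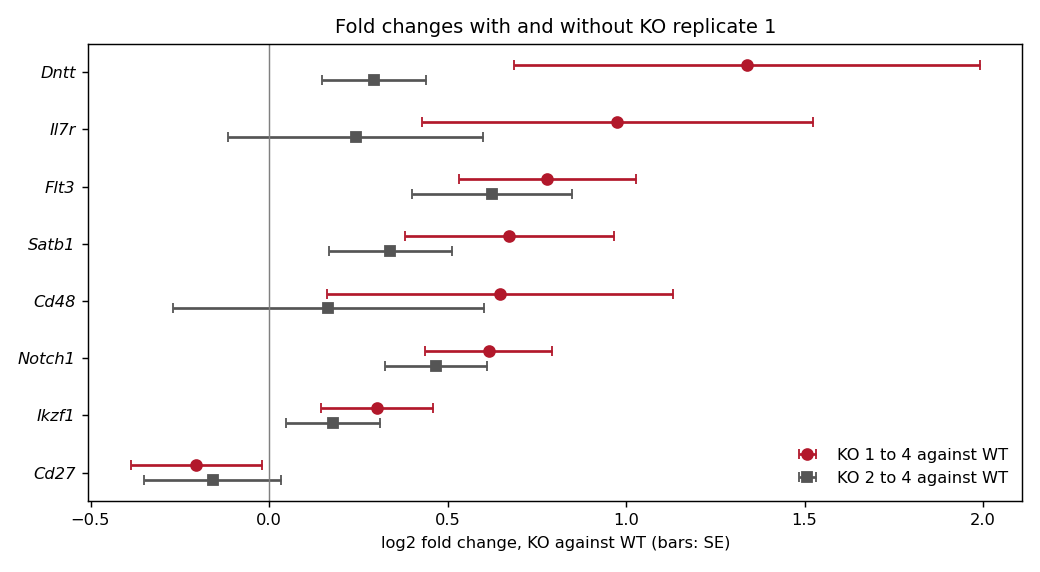
Log2 fold change of KO against WT with its SE for each member, with all KO libraries (red circles) and without KO replicate 1 (grey squares). Without it Dntt is at 0.29 in place of 1.34 and Il7r at 0.24 in place of 0.98, while Flt3 (0.62 and 0.78) and Notch1 (0.47 and 0.61) move less.

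**Figure D4:**
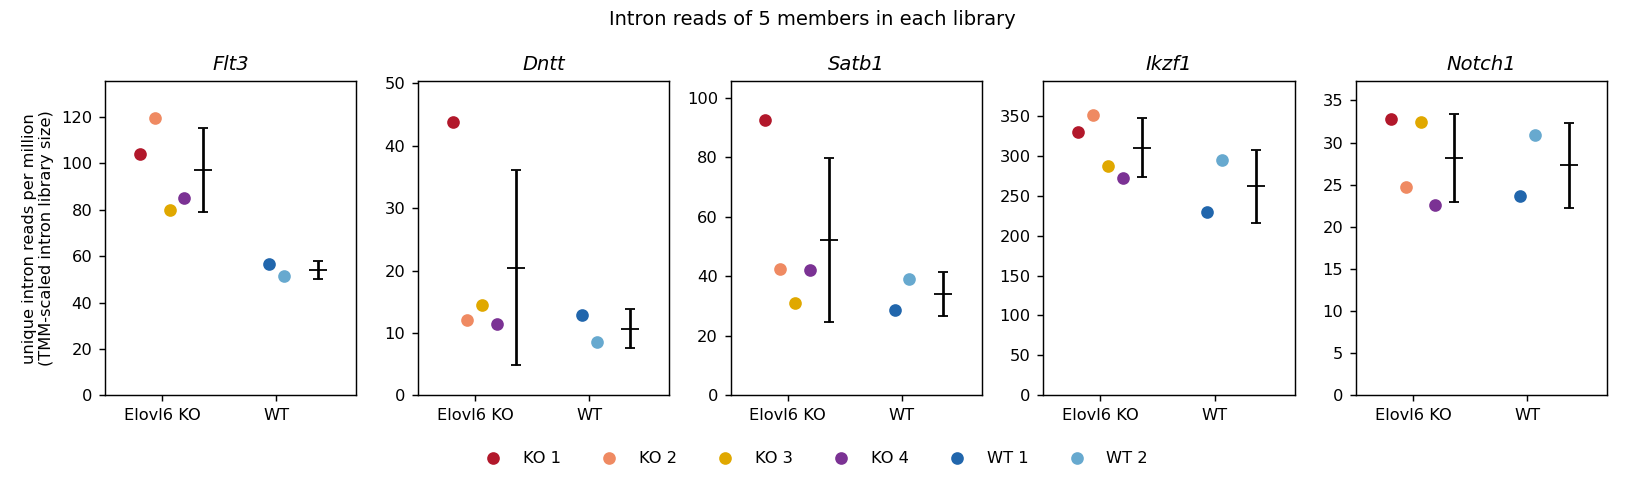
Intron CPM (unique intron reads scaled to intron library size) of 5 members in each library, KO left and WT right, with the mean and SD of each group as a black bar. With TMM scaling all KO points lie above both WT points for Flt3, and the groups overlap for Dntt, Satb1, Ikzf1 and Notch1.

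Levels of different genes were compared as CPM per kilobase of exon. Dntt was the most abundant member in both groups, at 291 ± 297 in KO (SD, n = 4) and 115 ± 11.7 in WT (SD, n = 2). Flt3 at 90.6 ± 26.4 and Ikzf1 at 65.7 ± 10.2 followed in KO, and in WT they were at 52.9 ± 4.10 and 53.3 ± 3.85. Their ranges overlapped in both groups, and their order differed between libraries. Flt3 was above Ikzf1 in KO replicates 1 to 3, below it in KO replicate 4, and narrowly below it in both WT libraries. Notch1 (20.9 in KO and 13.7 in WT) and Cd27 (18.4 and 21.1) came next, overlapping in KO but not in WT. Cd48 (10.9 and 7.07), Satb1 (10.7 and 6.77) and Il7r (7.16 and 3.71) had the lowest means, but Cd27 and Cd48 overlapped in KO. In KO replicate 1, Cd48 (19.7) and Satb1 (17.1) were above Cd27 (16.3). Cd48 and Satb1 overlapped in both groups, and Satb1 and Il7r in KO alone. Such overlap is between ranges over libraries, and within each KO library Satb1 was above Il7r (17.1 and 15.3 in KO replicate 1).

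The genes most like Flt3 and Dntt across the 6 libraries were found by the root mean square difference of centred log2 CPM, among 10358 genes. Nearest to Dntt were Blnk, an adaptor of B cell receptor signalling, at 0.12, Igll1, a surrogate light chain gene, at 0.21, Il7r at 0.23, the tropomyosin gene Tpm4 at 0.25, and Vpreb3, a pre-B cell gene, at 0.26. Blnk had 167, 28.6, 41.9 and 38.2 CPM in KO replicates 1 to 4, against 23.7 and 27.9 CPM in WT. Nearest to Flt3 were the ETS factor Elk4 at 0.12, the methionine sulfoxide reductase gene Msrb3 at 0.13, the phosphatase gene Dusp18 at 0.13, the G-protein regulator Rgs2 at 0.13 and the apoptosis gene Bcl2l11, which encodes BIM, at 0.13. Rgs2 had 724, 550.0, 412 and 313 CPM in KO replicates 1 to 4, against 264 and 310.0 CPM in WT. Flt3 ranked 338th in likeness to Dntt, and Notch1 ranked 28th in likeness to Flt3. These likenesses over 6 libraries are descriptions.

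Among 16 other transcription factors of lymphoid priming, 15 had a log2 fold change above 0, with a median of 0.21 against 0.01 for all tested genes. None passed after adjustment in edgeR, while 1 did in DESeq2 (0.728% of all genes did) and 0 in limma-voom. At an unadjusted p under 0.05, 3 were higher, against 5.67% of all genes, the share that applies to each edgeR count of higher list genes below. The 3 were Ets1, at 83.1 ± 28.8 CPM in KO (SD, n = 4) and 40.8 ± 9.39 CPM in WT (SD, n = 2), Gfi1, a repressor, at 72.3 ± 9.58 and 47.3 ± 12.1 CPM, and Sox4 at 233 ± 24.3 and 167 ± 48.7 CPM. Of 10 tested early lymphoid genes, 8 were above 0, with a median of 0.50, and 0.06 without KO replicate 1. Il12a and Blnk were higher at an unadjusted p under 0.05 and 0 passed after adjustment in edgeR, DESeq2 or limma-voom. The recombinase genes Rag1 and Rag2, named after their values were seen, had too few counts to be tested, at 37, 8, 1 and 4 and at 21, 5, 4 and 5 in KO replicates 1 to 4, against 3 and 0 and 3 and 1 in WT. Of 13 multipotent progenitor genes tested, 11 were above 0 (median 0.32), and 3, Cd33, Slamf6 and Cd53, were higher at an unadjusted p under 0.05. In edgeR and limma-voom 0 passed after adjustment and in DESeq2 1. Cd33, a sialic acid-binding receptor, was at 34.6 ± 9.61 CPM in KO and 13.8 ± 0.787 CPM in WT.

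In the signalling lists the medians lay near that of all tested genes. Of 16 genes of FLT3 and IL-7 receptor signalling, 11 were below 0, with a median of -0.06. The ubiquitin ligase gene Cbl was higher in KO at an unadjusted p under 0.05 (log2 fold change 0.46, SE 0.13, edgeR) and Stat5a lower (-0.34, SE 0.14). These counts, 1 of 16 in each direction, are near the shares of all genes, 5.67% higher and 4.23% lower. Of 17 tested Notch pathway genes, 9 were above 0 with a median of 0.00. The coactivator gene Maml3 (0.50, SE 0.23) was the 1 higher at an unadjusted p under 0.05 (edgeR), again near the share of all genes. The Notch target Nrarp had 0 counts in every library. In neither list did a gene pass after adjustment, in edgeR, DESeq2 or limma-voom.

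Summed RNA of B-lineage and of cycling genes was highest in KO replicate 1, and KO replicate 4 came next in both sums. All 13 tested B cell genes were above 0 (median 1.24, and 0.49 without that library), with 9 of them highest in KO replicate 1. At an unadjusted p under 0.05, 3 were higher, against 5.67% of all genes, and 0 passed after adjustment in edgeR, DESeq2 or limma-voom. The 3 were Pax5, Ebf1 and Pou2af1, at 1.17, 1.01 and 0.93 without KO replicate 1. Each was then still higher at an unadjusted p under 0.05 (edgeR), against 4.88% of all genes. Vpreb1 went below 0 in that fit (-0.37). Pax5, which fixes B cell identity, was at 241, 44.3, 49.2 and 88.1 CPM in KO replicates 1 to 4, against 26.4 and 26.0 CPM in WT. Ms4a1, a marker of mature B cells, had at most 7 counts in any library. Summed over 16 genes of G2 and mitosis, the level was 3520, 1472, 1358 and 3019 CPM in KO replicates 1 to 4, against 996 and 1654 CPM in WT, and 15 of the 16 were highest in KO replicate 1. All 16 were above 0, 4 of them at an unadjusted p under 0.05, and 0 passed after adjustment in edgeR, DESeq2 or limma-voom. The part of B-lineage RNA and of cycling in the levels of Dntt, Il7r and the other members was not tested.

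Of 17 tested HSC identity genes, 15 were below 0 (median -0.22, and -0.11 without KO replicate 1). The 2 above 0, named after their values were seen, were Hlf at 0.03 and Procr at 0.01. Cdkn1c, a cell cycle inhibitor, Vwf, the platelet adhesion factor of platelet-biased stem cells, and Ly6a had the smallest p. At an unadjusted p under 0.05, 5 were lower, against 4.23% of genes, and 0 passed after adjustment in edgeR, DESeq2 or limma-voom. Their summed level was 2950 CPM in KO replicate 1, 3436 to 4330 CPM in the other KO libraries, and 4040 and 4366 CPM in WT, with overlap between the groups. KO replicate 1, highest for 7 of the members, was thus the lowest for this sum.

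**Figure D5:**
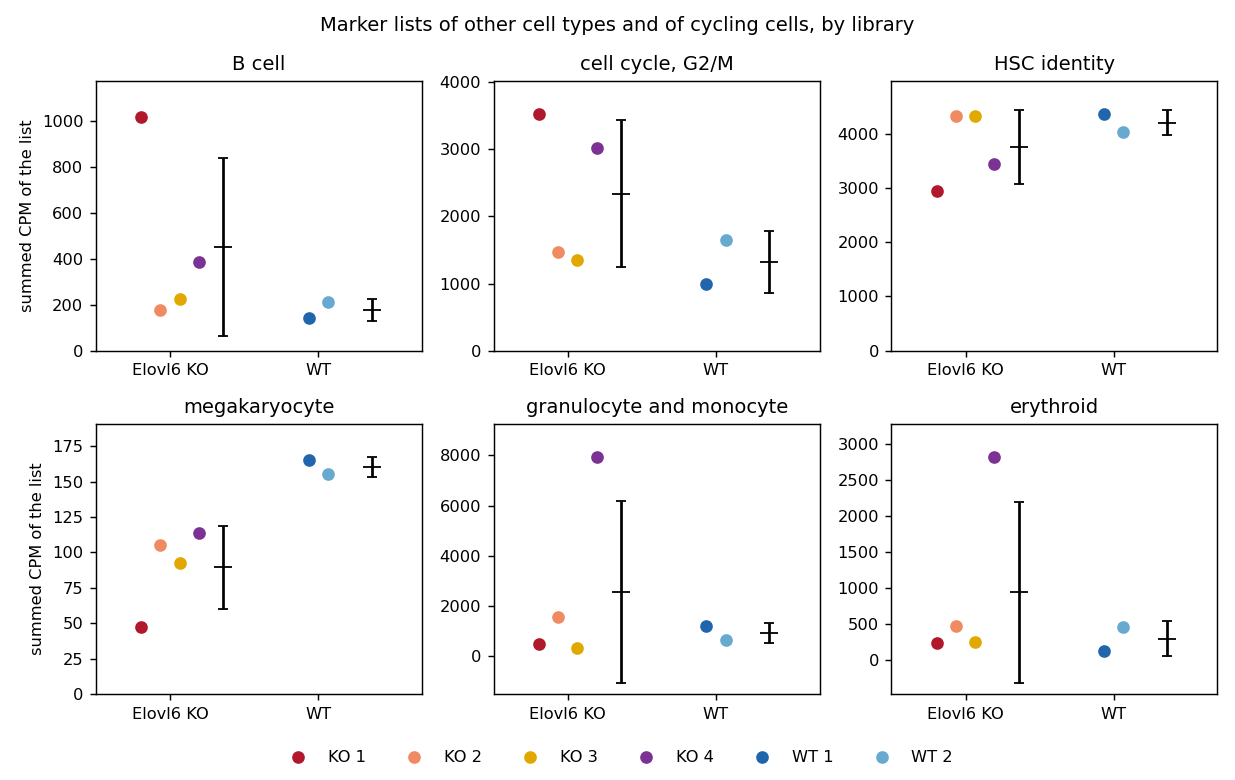
Summed CPM of 6 marker lists in each library, KO left and WT right, with the mean and SD of each group as a black bar. B cell genes are highest in KO replicate 1 (1020 CPM), G2/M genes in KO replicates 1 and 4 (3520 and 3019 CPM), and granulocyte and erythroid genes in KO replicate 4 (7951 and 2824 CPM).

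In the authors' deposited table, made with a test its header names EDGE, the signed folds were 1.71 for Flt3, 2.52 for Dntt, 1.94 for Il7r, 1.59 for Satb1, 1.56 for Cd48, 1.52 for Notch1, 1.23 for Ikzf1 and -1.16 for Cd27, positive where KO is higher. The smallest adjusted p among the members in the authors' deposited table was 0.970, for Flt3.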

How the data were processed

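Trizol RNA went into a directional library kit, per the labels' protocols. The submitters' processing notes name mm10 as the build. Which aligner and counter were run is not given in the sources used here. For all genes the authors deposited 1 table with read counts per gene for 6 libraries (expression values, unique and total exon reads, junction, intron and gene reads), per the file headers. The authors also deposited p-values and a signed fold. A further 54 per-library columns were not used.

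The test of the expression counts was that of edgeR 4.0.16 under R 4.3.3 (filterByExpr, TMM, quasi-likelihood F test, genotype as the only term, Benjamini-Hochberg over 11969 genes, threshold 0.05). Library sizes for CPM were scaled by TMM. The SE is the size of the log2 fold change over the square root of F. Intron reads were fitted and scaled separately. Depth (2121240 to 5137628 counts) limits Cd48 and Il7r, and both depth and shared read placement limit Ccr9. Alternatives used DESeq2 1.42.0, limma-voom (limma 3.58.1), other filters and read classes, libraries left out and a replicate block. The edgeR fit was tested on simulated data. Gene positions are 1-based.

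Members and the 16 other gene lists (202 entries, 2 symbols not matched) were chosen with earlier results of these data known. The text names the members, up to 3 genes per list with the smallest p, genes at 0 counts, and the 5 genes each closest to Flt3 and Dntt with a mean of at least 5 CPM, a count in every library and no clone-type or predicted name, Y-linked genes and Xist left out. Rag1, Rag2, Ms4a1, Vpreb1, Hlf, Procr and 4 erythroid genes were named after their values were seen.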

Additional observations from a re-analysis of the deposited data

Results flagged for a closer look

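In 2 of the 8 tested members, 1 KO library lay far from the other 3 by Dixon's test of the gap over the range at the 95% level. Dntt was at 1567 CPM in KO replicate 1, with 273 to 335 CPM in the other KO libraries. Il7r was at 49.2 CPM in KO replicate 1, with 12.3 to 17.1 CPM in the other KO libraries. Chance flags about 5% of groups of this size, and 6.54% of all tested genes were flagged.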

How the results depend on the processing

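The direction of all 8 tested members held under each alternative that gave a value. Without a filter on low counts Flt3 was at 0.79 (adjusted p = 0.00119) and Dntt at 1.35 (adjusted p = 1.24e-05), both past the threshold, 4 members were called (with Notch1 and Satb1) and 307 genes in all, and the cause was not tested. Without KO replicates 3 and 4 together, Flt3 was at 1.05 (adjusted p = 0.0431), 1 member was called and 33 genes. With each library left out in turn, Flt3 ran from 0.62 to 0.95, Dntt from 0.29 to 1.59, members called from 0 to 1 and genes called from 2 to 30. The calls made with all libraries numbered 19, with DESeq2 87 and with limma-voom 9. A fit of the 4 libraries that carry the numbers 1 and 2, with a replicate block, called 34 genes (11 of them among the 19), and Flt3 was at 1.05 (adjusted p = 0.150) and Dntt at 1.43 (adjusted p = 0.582). Deviations of same-numbered libraries from their group had correlations of -0.08 and -0.10 over 11969 genes. With only 2 WT libraries these values cannot tell whether a shared number marks a pairing. Intron reads, added after the data were seen, gave 0.95 for Dntt (adjusted p = 0.784). With only 2 WT libraries, leaving out WT replicate 1 or 2 leaves 1 library in that group, which is then assumed to vary like KO.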

Other observations

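Of the remaining marker lists, RNA of T cells was scarce, with summed levels of 54.5 to 97.2 CPM in KO and 41.0 to 47.4 CPM in WT over 12 genes, of which 4 could be tested. Of the 4, 3 were above 0 and 1 below. Cd4 was at 16.3 ± 3.15 CPM in KO (SD, n = 4) and 5.31 ± 2.44 CPM in WT (SD, n = 2). With Cd28 it was higher at an unadjusted p under 0.05 (edgeR). Cd28 had few counts, 38, 51, 3 and 4 in KO replicates 1 to 4, against 6 and 2 in WT, and the groups overlapped. NK and innate lymphoid genes summed to 34.6 to 41.1 CPM in KO and 17.3 to 30.0 CPM in WT, and Nkg7, a granule protein gene, was higher at an unadjusted p under 0.05. Dendritic cell genes, a lineage that also carries FLT3, summed to 256 to 422 CPM in KO and 260.0 to 283 CPM in WT. Of 8 tested, 6 were above 0 and 2 below. The 1 with an unadjusted p under 0.05 was the class II gene H2-Aa, at 88.9 ± 10.3 CPM in KO and 54.8 ± 5.36 CPM in WT.

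Megakaryocyte genes summed to 47.6 to 114 CPM in KO and 155 to 165 CPM in WT, and all 6 tested were below 0. At an unadjusted p under 0.05 (edgeR), 2 of the 6 were lower, against 4.23% of all genes. Selp, which encodes P-selectin, was at 4.27 ± 1.74 CPM in KO and 17.8 ± 0.128 CPM in WT. Erythroid genes summed to 226 to 2824 CPM in KO, highest in KO replicate 4, and 116 to 459 CPM in WT, with 5 of 10 higher at an unadjusted p under 0.05, against 5.67% of all genes. Below 0 were 4 (Klf1, Car1, Epor and Gata1), named after their values were seen. Of 6 tested partners of SATB1, CD27 and CCR9, 4 were above 0 and none had an unadjusted p under 0.05. In edgeR 0 genes of these 6 lists passed after adjustment, and DESeq2 called 1 megakaryocyte gene. Of 10 tested granulocyte and monocyte genes 9 were above 0 (median 1.26) and 0 had an unadjusted p under 0.05 in edgeR.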
